A study of Mus musculus with 20 samples.

Results

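Interleukin receptor genes were read in haematopoietic stem cells (HSC) of the mouse and in their close progeny, the multipotent progenitors (MPP), each split by whether an antibody found the leptin receptor (Lepr) at the surface. They were taken by symbol: every protein-coding gene of the GENCODE M21 annotation whose name begins with Il, a number and r, apart from Il1rn, which encodes a soluble antagonist. The rule gave 42 of the 55573 gene lines in each count file, under 40 symbols, because Il11ra2 is annotated 3 times. The cells came from the bone marrow of C57BL/6 mice aged 7 to 9 weeks, 2 mice per sample, and no group carried a transgene, a deletion or a treatment in the labels. All cells lacked lineage antigens and carried Sca-1 and c-Kit, the gate called LSK. HSC were the CD150+CD48- cells and MPP the CD150-CD48- cells of that gate. The 4 groups, each of 5 libraries from 1000 to 8000 cells, were HSC with (Lepr+ HSC) or without the receptor (Lepr- HSC) and MPP with (Lepr+ MPP) or without it (Lepr- MPP). The design asked how cell type and surface leptin receptor change the RNA of these cells.

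Interleukins are secreted proteins through which blood and tissue cells instruct each other, and which of them a cell can answer depends on the receptor chains it carries. Most receptors pair a chain that is private to one ligand with a chain shared by several: the common gamma chain for IL-2, IL-4, IL-7, IL-9, IL-15 and IL-21, the common beta chain for IL-3, IL-5 and GM-CSF, and gp130 for IL-6 and IL-11. These receptors, like the leptin receptor itself, signal through Janus kinases (JAK) and STAT transcription factors, whereas IL-1 and IL-17 receptors signal through adaptor proteins to NF-kB. In bone marrow, IL-3 and IL-6 are classical growth factors of progenitors, IL-7 supports lymphoid precursors, and IL-1 drives stem cells towards myeloid output.

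Libraries held 9532993 to 31589794 counts in genes, with the shallowest among replicates 4 and 5. Values are in CPM, counts scaled to a common library size with edgeR's TMM factors. Lepr mRNA lay between 0.0759 and 9.36 CPM for Lepr+ HSC, against 0 to 0.165 CPM for Lepr- HSC, and between 0.261 and 38.8 CPM for Lepr+ MPP, against 0 to 0.767 CPM for Lepr- MPP. Lepr+ HSC replicate 4 and Lepr+ MPP replicate 1 lay within the range of the Lepr- cells of their type. Slamf1, which encodes CD150, lay between 19.6 and 66.6 CPM for Lepr+ HSC and 28.3 and 63.8 CPM for Lepr- HSC, against 0 to 8.07 CPM for Lepr+ MPP and 0.0697 to 10.01 CPM for Lepr- MPP, and Kit was at 368.5 CPM or more in every library. Markers of mature cells were read as the summed CPM of marker lists. The 7 T cell markers reached at most 15.4 CPM in any library, with Cd8a at 0 in all groups. Other lists rose higher in some libraries. The 6 neutrophil markers reached 558.4 CPM in Lepr+ HSC (median 28.5) and the 5 plasma cell markers 1643 CPM in Lepr+ MPP (median 354). The 4 eosinophil markers reached 227.1 CPM in Lepr- MPP (median 9.45). The 7 mast and basophil markers reached 84.55 CPM in Lepr+ HSC (median 5.09). The part of these lists in the receptor values was not tested. The 10 stromal markers, Lepr among them, summed to 141.9 to 3251 CPM in Lepr+ MPP, against 45.8 to 73.8 CPM for Lepr- MPP, and to 31.7 to 171.8 CPM in Lepr+ HSC, against 14.0 to 191.1 CPM for Lepr- HSC. Replicates 4 and 5 of Lepr+ MPP and replicate 5 of Lepr+ HSC resembled their groups least.

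Of the 42 gene lines, 14 had a count in all 20 libraries, 23 in some of them and 5 in none. Those without a count were the 3 copies of Il11ra2, a near-identical duplicate of the IL-11 receptor gene, and 2 others. These were Il22ra1, a chain of the IL-22 receptor, and Il23r, the private chain for IL-23. After the filter on low counts 31 lines were tested, from 220 counts in all (Il2rb) upwards, and the 11 untested ones held at most 190 counts (Il20rb). The members summed to 841.1 to 1060 CPM in Lepr+ HSC, against 710.4 to 787.1 CPM for Lepr- HSC, and those groups did not overlap in CPM. They summed to 882.6 to 1243 CPM in Lepr+ MPP, against 1000 to 1251 CPM for Lepr- MPP, which did overlap. As a percentage of all gene counts, without TMM, the HSC groups overlapped. Lepr+ HSC replicate 5 had 0.0791% and Lepr- HSC replicate 1 had 0.0808%. All Lepr- HSC sums lay below all Lepr- MPP sums in CPM and in percent, where Lepr- MPP had at least 0.0953%. These sums were not tested. Thinned to 9532993 counts each, the libraries of replicate 1 held a count for 30 to 33 members and those of replicate 3 for 29 to 34. Those of replicate 2 held one for 22 to 33, of replicate 5 for 20 to 29 and of replicate 4 for only 19 to 23. Before thinning, the replicate 4 libraries held a count for 20 to 24 members, so the order remained at equal counts. The part of batch in it was not tested.

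**Figure D1:**
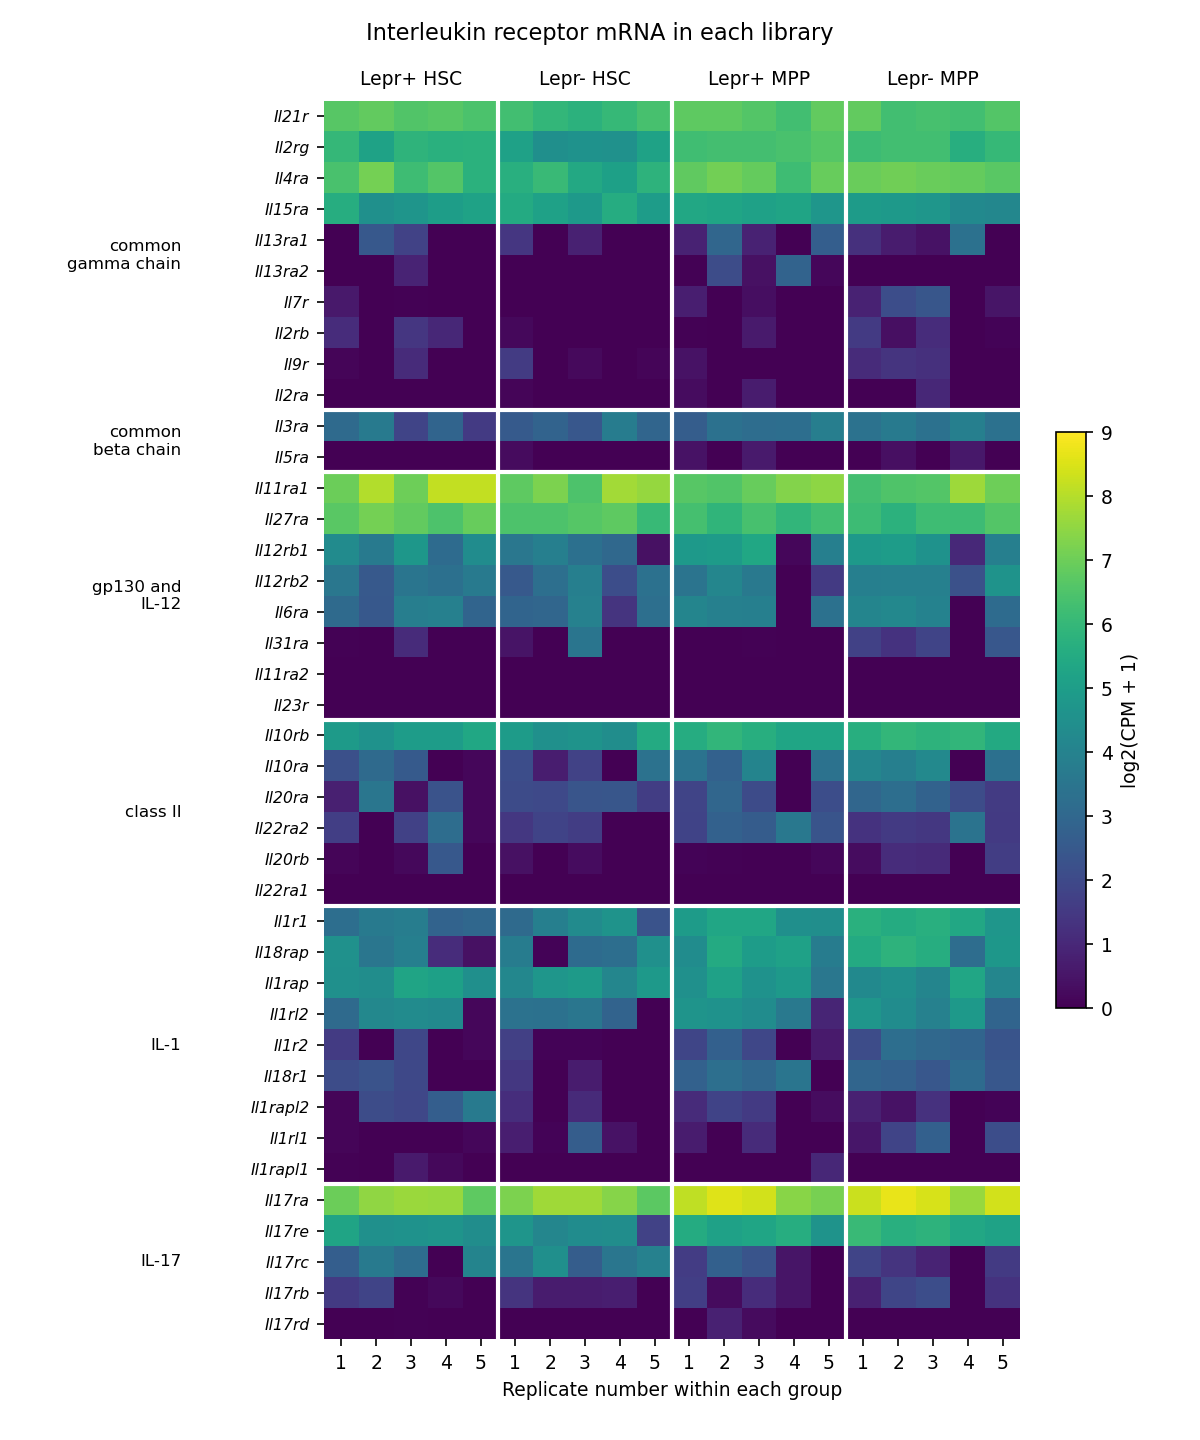
Levels of the 40 interleukin receptor symbols (down, by receptor family) in each of the 20 libraries (across, by group and replicate number), as log2(CPM + 1), from dark at 0 to bright. Some receptors fill every column, such as Il21r, Il11ra1, Il27ra and Il17ra, but only Il10rb of class II and only Il3ra of the common beta chain. Most others are missing from some libraries, often those of replicate 4.

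On the scale of CPM per kilobase of exon, which allows genes to be compared, the order over all 20 libraries was led by Il11ra1 (34.4), the private chain for IL-11, Il21r (26.7), the private chain for IL-21, Il17ra (26.2), the chain shared by IL-17 receptors, Il27ra (24.9), the private chain for IL-27, and Il2rg (24), the common gamma chain. Il4ra (15.3), Il10rb (10.4) and Il15ra (7.22) followed. Some other chains of receptors with the common gamma chain lay far below, with 0.112 for Il7r, 0.0934 for Il2rb and 0.0171 for Il2ra. The order differed between groups. In Lepr+ HSC the highest mean was that of Il11ra1, at 48.4 CPM per kilobase, and in Lepr- HSC likewise, at 33.5. In Lepr+ MPP it was Il2rg, at 34.6 CPM per kilobase, and in Lepr- MPP it was Il17ra, at 37. Neighbours in these orders often lay within 1 SD of each other, such as Il21r and Il17ra over all groups.

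**Figure D2:**
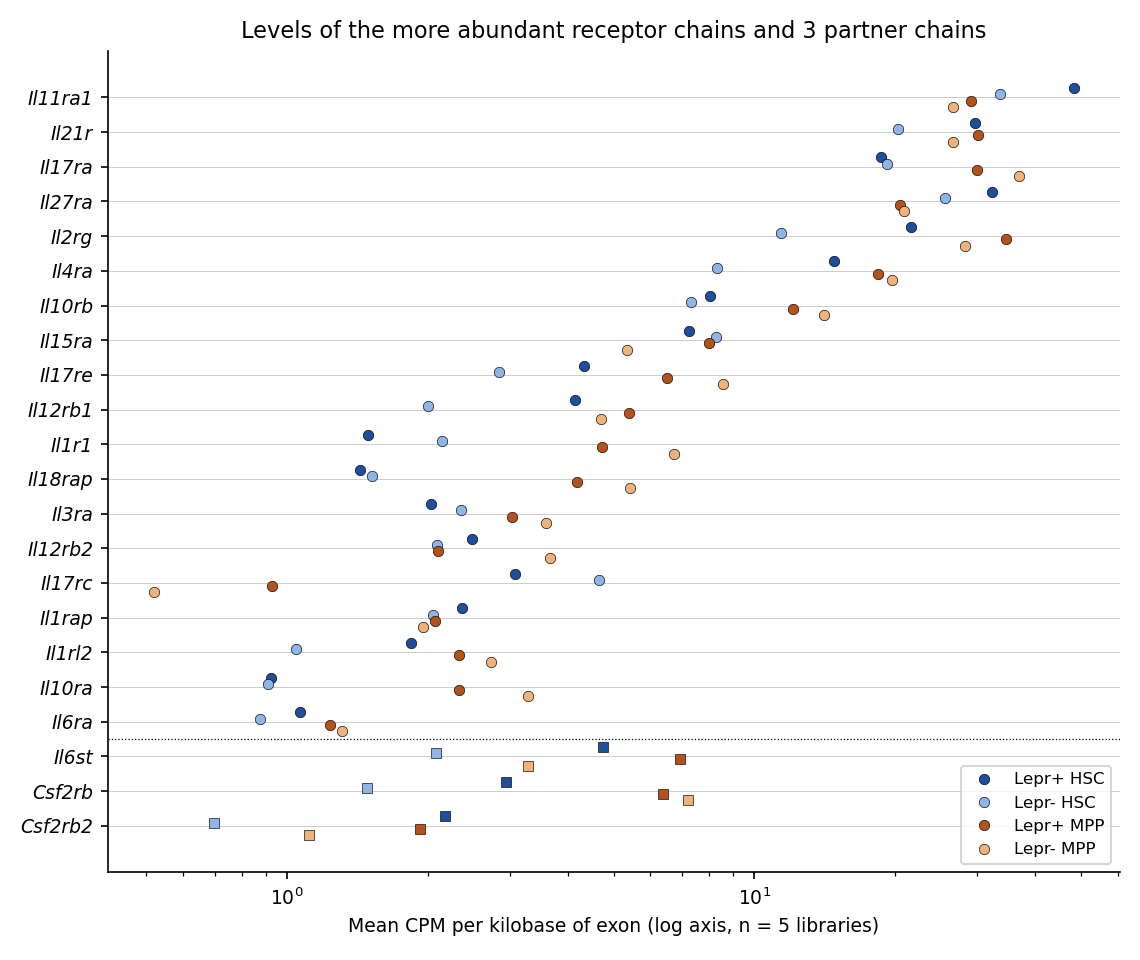
Mean CPM per kilobase of exon (log axis, 5 libraries a group) of the 19 members with a mean of at least 5 CPM and, beyond the dotted line, of the shared chains Il6st (gp130), Csf2rb and Csf2rb2. Il2rg, Il4ra, Il10rb, Il10ra, Il17ra, Il17re, Il1r1, Il1rl2, Il18rap, Il12rb1, Il3ra and Il6ra lie further right in both MPP groups than in both HSC groups. Il11ra1, Il27ra and Il17rc lie further left.

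In cells without surface leptin receptor, 5 interleukin receptor genes were lower in HSC than in MPP: Il2rg, Il4ra, Il1r1, Il10rb and Il17re. They were 16.1% of the 31 members tested, where 1.51% of all 16509 genes tested passed in that direction and 2.73% in either (edgeR's quasi-likelihood test, Benjamini-Hochberg adjusted p under 0.05, group as the only term). The median log2 fold change of the members was -0.95, against 0.01 over all genes, and 26 of 31 were negative. At an unadjusted p under 0.05 there were 13 members (41.9%), against 12.3% of all genes. With the replicate number as a block, Il7r and Il17ra passed as well, which made 7 lower members (22.6%) where 3.43% of all genes passed. In these bulk samples, fewer cells of a type and less RNA per cell cannot be told apart. The count fell to 2 without Lepr- HSC replicate 2, Lepr- MPP replicate 2 or Lepr- MPP replicate 3, and to 3 without Lepr- HSC replicate 3 or 4 or Lepr- MPP replicate 1. Of the 5 genes of sort antigens (Lepr, Slamf1, Cd48, Ly6a and Kit), 1 was higher and 2 were lower in Lepr- HSC. Of all genes, 1.22% were higher and 1.51% lower. With the block 1 was higher and 3 were lower, where 4.07% and 3.43% of all genes were. Their median log2 fold change without the block was -1.27. Sums of marker lists differed in this comparison as well. The 5 megakaryocyte markers summed to 1871 to 4759 CPM in Lepr- HSC, against 104.4 to 225 CPM for Lepr- MPP. The 5 dendritic markers, among them Flt3, which early progenitors also make, summed to 2.91 to 37.1 CPM in Lepr- HSC, against 286.1 to 601.3 CPM for Lepr- MPP. By edgeR 4 of the 5 megakaryocyte markers were higher in Lepr- HSC, and 5 with the block. Only 3 dendritic markers were tested, of which 1 was lower in Lepr- HSC. With the block 1 dendritic marker was lower and 1 higher. The part of these markers in the result was not tested.

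Between HSC with and without surface leptin receptor, 0 of 31 members passed, where 0.103% of all genes did. At an unadjusted p under 0.05 there were 7 members (22.6%), against 6.96% of all genes, of which Il2rg, Il4ra, Il21r, Il2rb, Il7r and Il1rapl2 were higher and Il1rl1 lower in Lepr+ HSC. With the replicate block Il2rg rose, where 0.763% of all genes did, and DESeq2 called Il2rg and Il4ra higher (6.45% of members, where it called 1.1% of all genes in either direction). The median member had a log2 fold change of 0.34, against 0.00 over all genes, and 21 of 31 were positive. Sums of marker lists differed here as well. The megakaryocyte markers summed to 502.7 to 1733 CPM in Lepr+ HSC, against 1871 to 4759 CPM for Lepr- HSC. The 6 erythroid markers, all of them counted in both groups, summed to 73.5 to 262.7 CPM in Lepr+ HSC, against 278.9 to 1156 CPM for Lepr- HSC. By edgeR, 0 of the 5 megakaryocyte and 0 of the 6 erythroid markers passed. With the block 2 megakaryocyte markers were lower, where 0.26% of all genes were, and 0 erythroid ones passed. The sum of neither list overlapped between the groups, and the part of these markers in the receptor values was not tested.

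Between MPP with and without surface leptin receptor, 0 of 31 members passed without or with the block, where 0.2% and 0.103% of all genes did. At an unadjusted p under 0.05 there were 2 members (6.45%), Il15ra and Il31ra, against 4.41% of all genes. DESeq2 called Il31ra alone, lower (3.23%, where it called 1.29% of all genes in either direction). By edgeR without the block, 6 of the 10 stromal and 4 of the 8 endothelial markers were higher in Lepr+ MPP, where 0.176% of all genes were. The endothelial markers summed to 198.6 to 476 CPM in Lepr+ MPP, against 56.8 to 222.6 CPM for Lepr- MPP. The 6 erythroid markers summed to 30.1 to 214.2 CPM in Lepr+ MPP, against 150.8 to 821 CPM for Lepr- MPP. By edgeR without the block, 1 of the 6 was lower, where 0.0242% of all genes were. With the block 3 stromal and 2 endothelial markers were higher and 0 erythroid ones passed. The part of these lists in the values of this comparison was not tested. Between HSC and MPP that both carry the receptor, 0 members passed, where 0.466% of all genes did. There, 6 members (19.4%) had an unadjusted p under 0.05, against 7.89% of all genes, and with the block Il1r1 fell, where 0.648% of all genes did. limma voom called Il1r1 too, where it called 0.763% of all genes in either direction. DESeq2 called Il1r1 and Il2rg lower and Il27ra higher (9.68% of members), where it called 2.08% of all genes. The difference between the Lepr effect in HSC and that in MPP, tested as an interaction, passed for 0 genes of any kind, and 0 members (0%). At an unadjusted p under 0.05 there were 5 members, Il2rb, Il2rg, Il4ra, Il7r and Il15ra, against 3.2% of all genes. DESeq2 called 19 genes (0.115%) for it, of which 0 were members. No difference between the Lepr effects of HSC and MPP was shown for any receptor.

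**Figure D3:**
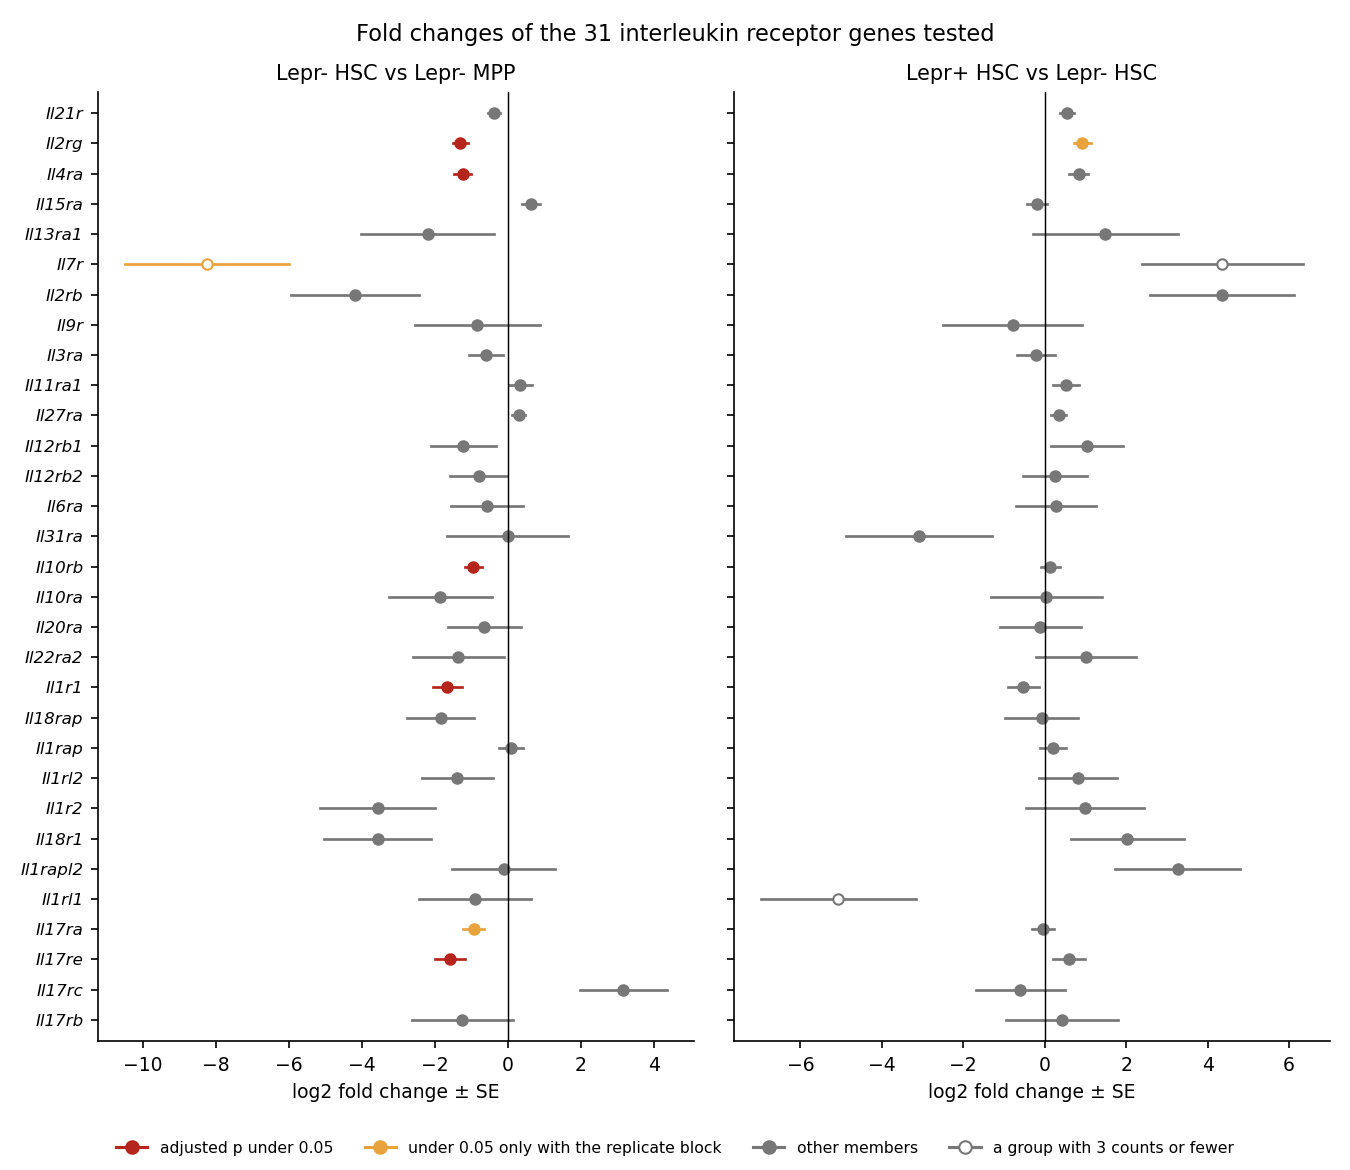
Log2 fold changes with their SE of the 31 members tested, by family, in Lepr- HSC against Lepr- MPP (left) and in Lepr+ HSC against Lepr- HSC (right). Most points lie left of 0 in the left panel and right of 0 in the right panel. Red marks an adjusted p under 0.05, orange one only with the replicate block, and open symbols genes with 3 counts or fewer in a group, whose fitted values depend on the prior count.

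The promoter windows are shown for 4 of the 5 genes that passed between Lepr- HSC and Lepr- MPP and for Il21r, the member whose HSC groups did not overlap, so that any letters they share can be seen. Il10rb is not shown. RefSeq (GRCm38.p6) gave 39 windows of 300 bases, from 250 before to 50 after a start, for 33 of the 40 symbols. They are written 5′ to 3′ on the gene's strand, with matches in capitals to TGTGGT, a core of sites for RUNX factors, on either strand.
Il2rg, chrX:101268206-101268505, minus strand: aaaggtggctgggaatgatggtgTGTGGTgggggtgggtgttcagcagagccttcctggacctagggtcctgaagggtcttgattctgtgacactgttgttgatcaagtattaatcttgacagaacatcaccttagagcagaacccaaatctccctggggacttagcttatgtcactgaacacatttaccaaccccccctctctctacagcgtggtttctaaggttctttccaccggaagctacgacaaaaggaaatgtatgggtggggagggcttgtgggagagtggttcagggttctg
Il4ra, chr7:125552021-125552320, plus strand: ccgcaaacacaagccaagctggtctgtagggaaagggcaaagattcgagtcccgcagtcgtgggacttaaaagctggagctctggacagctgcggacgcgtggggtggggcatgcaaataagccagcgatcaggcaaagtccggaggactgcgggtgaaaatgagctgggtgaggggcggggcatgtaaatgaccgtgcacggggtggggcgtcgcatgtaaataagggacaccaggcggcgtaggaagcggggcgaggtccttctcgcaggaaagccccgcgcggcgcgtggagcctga
Il21r, chr7:125603179-125603478, plus strand: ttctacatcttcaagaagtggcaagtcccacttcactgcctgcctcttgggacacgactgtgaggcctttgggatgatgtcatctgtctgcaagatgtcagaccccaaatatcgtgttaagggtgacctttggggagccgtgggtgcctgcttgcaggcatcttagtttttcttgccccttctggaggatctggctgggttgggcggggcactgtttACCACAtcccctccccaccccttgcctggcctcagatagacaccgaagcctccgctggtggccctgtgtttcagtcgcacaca
Il1r1, chr1:40224830-40225129, plus strand: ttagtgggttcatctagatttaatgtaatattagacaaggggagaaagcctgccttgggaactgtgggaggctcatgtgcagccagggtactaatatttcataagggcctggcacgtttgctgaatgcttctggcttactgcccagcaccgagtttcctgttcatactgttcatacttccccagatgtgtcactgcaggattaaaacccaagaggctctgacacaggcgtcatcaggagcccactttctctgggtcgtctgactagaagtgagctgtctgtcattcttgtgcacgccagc
Il17re, chr6:113458521-113458820, plus strand: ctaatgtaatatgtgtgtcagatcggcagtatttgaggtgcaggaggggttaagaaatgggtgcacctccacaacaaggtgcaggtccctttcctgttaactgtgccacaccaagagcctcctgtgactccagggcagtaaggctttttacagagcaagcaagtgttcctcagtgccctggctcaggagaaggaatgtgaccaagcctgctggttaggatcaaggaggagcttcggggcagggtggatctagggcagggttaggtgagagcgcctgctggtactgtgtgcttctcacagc
TGTGGT was in the windows of Il2rg and Il21r but not in those of Il4ra, Il1r1 or Il17re, and it was in 23.1% of the 39 member windows and 16.8% of all 32851 windows. The STAT pattern TTCNNNGAA was in none of the 5, in 12.8% of member windows, and in 8.3% of all windows. The STAT6 pattern, with 1 base more in its middle, was likewise in none of the 5, in 12.8% of member windows, and in 6.95% of all windows. AGATAA, which GATA factors bind, was in 20.5% of member windows and 11.2% of all. The IRF pattern was in 2.56% and 3.44%, and GAGGAAGT, a PU.1 pattern, in 2.56% and 3.2%. No pattern searched was in all 5 windows.

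The common gamma chain and the private chains that pair with it held 2 of the 5 genes that passed. Il2rg (ENSMUSG00000031304.18, GRCm38 chrX:101264378-101268255, minus strand) encodes the common gamma chain. It had 62.5, 35.1, 57.3, 51.6 and 52.7 CPM in Lepr+ HSC replicates 1 to 5, against 34.5, 21.4, 23.1, 22.2 and 35.4 CPM for Lepr- HSC. It had 75.1, 77.7, 78.2, 85.4 and 97.1 CPM in Lepr+ MPP, against 70.9, 76, 76.9, 49.3 and 65.1 CPM for Lepr- MPP. Every Lepr- HSC library lay below every Lepr- MPP library, and only replicate 2 of the Lepr+ HSC reached into the range of the Lepr- HSC. Il2rg was lower in Lepr- HSC than in Lepr- MPP, with a log2 fold change of -1.31 ± 0.20 (SE; adjusted p = 0.000765; lower in 5 of 5 same-numbered pairs). In Lepr+ against Lepr- HSC the log2 fold change was 0.92 ± 0.20, higher in 5 of 5 pairs, with an edgeR adjusted p of 0.0806, so Il2rg did not pass. It passed under 5 of 30 alternatives, among them the block (adjusted p = 0.0213) and leaving out Lepr+ HSC replicate 2 (0.048). Leaving out any other single library of these groups gave 0.0582 to 0.261, and leaving out a replicate number from all groups gave 0.184 to 0.491. Lepr+ HSC also lay below all Lepr+ MPP, at -0.67 ± 0.20 (adjusted p = 0.187). The interaction was 0.64 ± 0.28, with an unadjusted p of 0.0361 and an adjusted p of 1. Of its exon bases, 728 of 2387 are shared with Gm20489, which had at most 0.3 CPM in any library.

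Il4ra (ENSMUSG00000030748.9, chr7:125552120-125579474, plus strand) encodes the chain that binds IL-4 and also serves IL-13. It had 83.6, 139, 73.6, 96.5 and 53 CPM in Lepr+ HSC, against 50.7, 67.9, 42.5, 33.5 and 55 CPM for Lepr- HSC. It had 109.5, 134, 117, 73.6 and 119 CPM in Lepr+ MPP, against 121, 130.2, 122, 117 and 102 CPM for Lepr- MPP. All Lepr- HSC lay below all Lepr- MPP, whereas both Lepr+ groups ranged widely and overlapped. Il4ra was lower in Lepr- HSC than in Lepr- MPP, with a log2 fold change of -1.24 ± 0.24 (adjusted p = 0.00439, 5 of 5 pairs). In Lepr+ against Lepr- HSC the log2 fold change was 0.84 ± 0.23, higher in 4 of 5 pairs, with an adjusted p of 0.215, or 0.0521 with the block, and DESeq2 gave 0.0355. The antisense gene Gm44876, which shares 571 of its 6002 exon bases, had at most 0.910 CPM.

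Il21r (ENSMUSG00000030745.9, chr7:125603429-125633570, plus strand) starts 23954 bases beyond the end of Il4ra on the same strand. It had 101, 113, 93.3, 99.5 and 87 CPM in Lepr+ HSC, against 76.3, 60.6, 54.2, 63.6 and 82.6 CPM for Lepr- HSC. It had 107, 108, 94.9, 76.6 and 114 CPM in Lepr+ MPP, against 112, 76.5, 82.8, 76.1 and 94.8 CPM for Lepr- MPP. The HSC groups did not overlap, the only member for which this held, where 1.62% of all genes did not overlap in either direction. The log2 fold change was 0.55 ± 0.17, with an edgeR adjusted p of 0.285, or 0.0535 with the block, so Il21r did not pass. In Lepr- HSC against Lepr- MPP it was -0.39 ± 0.16 (adjusted p = 0.305).

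Il15ra (ENSMUSG00000023206.16, chr2:11705290-11734317, plus strand) encodes the chain that holds IL-15 and presents it to other chains. It had 48.1, 21.8, 24.8, 31.3 and 35.5 CPM in Lepr+ HSC, against 44.8, 34.4, 27.5, 46.7 and 30.4 CPM for Lepr- HSC. It had 41.6, 38.5, 34.8, 37 and 25.8 CPM in Lepr+ MPP, against 29.7, 28.5, 25.3, 18.4 and 16.8 CPM for Lepr- MPP. Its mean was lowest in Lepr- MPP, not in Lepr- HSC, and all pairs of groups overlapped. Its log2 fold change was 0.58 ± 0.25 in Lepr+ against Lepr- MPP (adjusted p = 0.925) and 0.63 ± 0.25 in Lepr- HSC against Lepr- MPP (adjusted p = 0.271), and both were higher in 5 of 5 pairs. Its interaction was -0.77 ± 0.36, with an adjusted p of 1, opposite in sign to those of Il2rg and Il4ra.

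Il7r (ENSMUSG00000003882.5, chr15:9505788-9530176, minus strand) encodes the private chain for IL-7, a marker of lymphoid precursors. It had 0.514, 0, 0.029, 0 and 0 CPM in Lepr+ HSC, against 0 CPM in all 5 Lepr- HSC libraries. It had 0.685, 0, 0.248, 0 and 0 CPM in Lepr+ MPP, against 0.833, 3.37, 4.31, 0 and 0.433 CPM for Lepr- MPP. Most of its counts came from Lepr- MPP replicates 2 and 3. The Lepr- HSC had 0 counts, against 254 in Lepr- MPP, which makes it at least 73.2-fold lower against a floor of 3 counts over the group. That difference had an adjusted p of 0.0670, or 0.0237 with the block. Lepr+ HSC had 14 counts, at least 4.47-fold higher than Lepr- HSC, of which 13 were in replicate 1. The T cell markers, whose cells also make Il7r, had medians of 1.79 CPM in Lepr- HSC and 7.23 CPM for Lepr- MPP, and their part in the Il7r values was not tested.

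The other chains of this family were rare. Il2rb, which IL-2 and IL-15 share, had a mean of 0.771 ± 0.748 CPM in Lepr+ HSC and 0.027 ± 0.0604 CPM for Lepr- HSC (SD, n = 5 each). The Il2rb difference had an unadjusted p of 0.0235 and an adjusted p of 0.578. Il9r, the private chain for IL-9, stayed at or below 1.96 CPM in every library, and Il2ra, which makes the IL-2 receptor highly affine, at or below 1.01 CPM. The IL-13 chains split: Il13ra1, which signals with Il4ra, reached 9.27 CPM in Lepr- MPP replicate 4, while Il13ra2, a decoy, was seen mainly in Lepr+ MPP. Il13ra2 had 156 counts in Lepr+ MPP, against 0 in Lepr- MPP, at least 54.5-fold higher, of which replicates 2 and 4 held 3.22 and 6.37 CPM. It was too rare to be tested, and the stromal markers were also higher in Lepr+ MPP, up to 3251 CPM, though their part in it was not tested.

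**Figure D4:**
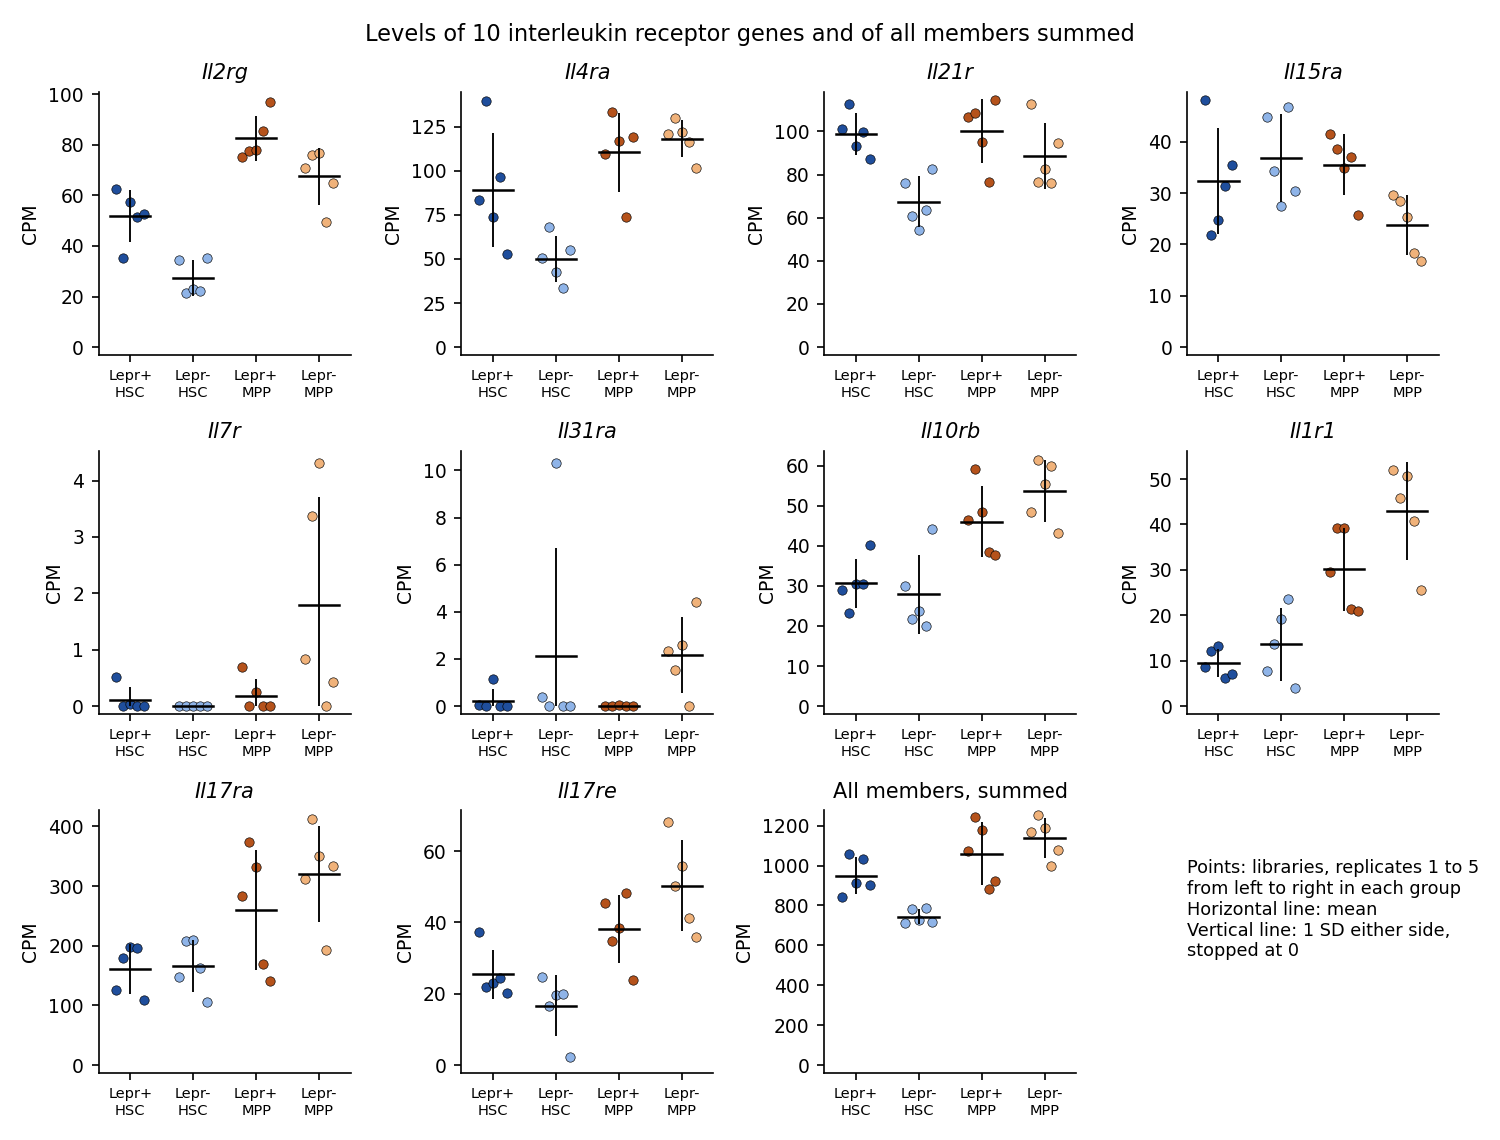
CPM in each library of 10 members, and of all members summed; points are replicates 1 to 5, horizontal lines means and vertical lines 1 SD. Il2rg and Il4ra stand lowest in Lepr- HSC, Il1r1, Il10rb, Il17ra and Il17re are lower in both HSC groups than in the MPP groups, and Il7r and Il31ra rest on a few libraries.

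The common beta chain family was represented by Il3ra, the private chain for IL-3. Il3ra averaged 6.05 ± 3.99 CPM in Lepr+ HSC, against 6.99 ± 3.36 CPM for Lepr- HSC (SD, n = 5 each). It averaged 8.98 ± 2.86 CPM in Lepr+ MPP, against 10.6 ± 1.97 CPM for Lepr- MPP. It passed in none of the 4 comparisons. Il5ra, the private chain for IL-5 and a marker of the eosinophil lineage, was counted in 5 libraries and at most at 0.559 CPM. The shared chains themselves, which carry other names, were measured: Csf2rb averaged 21.4 ± 13.3 CPM in Lepr+ HSC, against 10.8 ± 7.72 CPM for Lepr- HSC, and 46.4 ± 31.1 CPM for Lepr+ MPP, against 52.7 ± 26.5 CPM for Lepr- MPP. Csf2rb, for GM-CSF and IL-5 as well, and its mouse copy Csf2rb2, which serves IL-3 only, are close relatives, so reads may be split between them.

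Among the receptors related to gp130, the highest levels were those of Il11ra1 and Il27ra. Il11ra1 averaged 216 ± 82.9 CPM in Lepr+ HSC, against 149.9 ± 53 CPM for Lepr- HSC, and 130.0 ± 36.5 CPM for Lepr+ MPP, against 119 ± 50.3 CPM for Lepr- MPP (SD, n = 5 each). Its near-identical copies Il11ra2 were listed at 0. As the counting mode is not given, reads that match both may stand under Il11ra1 or may have been left out. Il27ra averaged 113 ± 19.1 CPM in Lepr+ HSC, against 89.5 ± 15 CPM for Lepr- HSC, and 71.8 ± 11.7 CPM for Lepr+ MPP, against 73.3 ± 14.4 CPM for Lepr- MPP. All Lepr+ HSC lay above all Lepr+ MPP for Il27ra, as they did not for Il11ra1. Il27ra, Il1r1 and Il2rg were the 3 members without overlap there, where 2.13% of all genes had none. The log2 fold change in that comparison was 0.66 ± 0.18 for Il27ra (edgeR adjusted p = 0.143, DESeq2 0.0238) and 0.73 ± 0.32 for Il11ra1 (edgeR adjusted p = 0.556).

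Il6ra, the private chain for IL-6, had a mean of 9.23 ± 4.24 CPM in Lepr+ HSC and 7.58 ± 4.65 CPM for Lepr- HSC, and of 10.7 ± 6.48 CPM in Lepr+ MPP and 11.3 ± 7.33 CPM for Lepr- MPP. It was at 0 in replicate 4 of both MPP groups and at 7.94 CPM or more in their other libraries. Il12rb1, shared by IL-12 and IL-23, and Il12rb2, private to IL-12, likewise had their lowest MPP values in replicate 4. Il12rb1 had 0.11 CPM in Lepr+ MPP replicate 4 and 1.05 CPM for Lepr- MPP replicate 4, against 13.6 CPM or more in the other MPP libraries. None of these 3 passed in any comparison, and Il12rb2 shares 1519 of its 3794 exon bases with Serbp1 on the other strand, which had 391.6 to 712.8 CPM, so in unstranded reads its values are uncertain.

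Il31ra (ENSMUSG00000050377.8, chr13:112519898-112594360, minus strand) encodes the private chain for IL-31, which pairs with the oncostatin M receptor. It had 0.0396, 0, 1.13, 0 and 0 CPM in Lepr+ HSC, against 0.405, 0, 10.3, 0 and 0 CPM for Lepr- HSC. It had 0, 0, 0.0311, 0 and 0 CPM in Lepr+ MPP, against 2.35, 1.52, 2.58, 0 and 4.4 CPM for Lepr- MPP. Replicate 3 held nearly all counts of both HSC groups, whereas 4 of 5 Lepr- MPP libraries had Il31ra. Over each group there was 1 count in Lepr+ MPP, against 245 in Lepr- MPP, which makes it 234-fold lower by counting alone (95% interval 41.5 to 9260, exact binomial, counting error only). edgeR gave an adjusted p of 0.381, or 0.0776 with the block, and DESeq2 gave 0.0448. Osmr, the partner chain, had the opposite pattern, with 3.85 ± 3.63 CPM in Lepr+ MPP and 0 CPM for all Lepr- MPP, and did not pass (adjusted p = 0.187).

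Of the class II receptors, which bind IL-10, IL-20, IL-22 and their relatives, Il10rb was the most abundant. Il10rb (ENSMUSG00000022969.13, chr16:91406164-91425834, plus strand) is the chain shared by IL-10, IL-22 and type III interferon receptors. It had 29.1, 23.2, 30.6, 30.5 and 40.2 CPM in Lepr+ HSC, against 29.9, 21.6, 23.8, 20.1 and 44.1 CPM for Lepr- HSC. It had 46.4, 59.3, 48.5, 38.5 and 37.7 CPM in Lepr+ MPP, against 48.5, 61.5, 55.5, 59.9 and 43.1 CPM for Lepr- MPP. Replicate 5 was the highest library of both HSC groups and reached into the range of the MPP with the same Lepr status, while the other HSC libraries lay below it. Il10rb was lower in Lepr- HSC than in Lepr- MPP, with a log2 fold change of -0.95 ± 0.23 (adjusted p = 0.0272, 4 of 5 pairs). This call was lost without any one of Lepr- HSC replicates 2, 3 and 4 or Lepr- MPP replicates 2, 3 and 4, with adjusted p from 0.0556 to 0.0888. Gm21970 shares 569 of its 3808 exon bases and had 0 counts.

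Il10ra, the private chain for IL-10, had means of 3.23 ± 3.27 CPM in Lepr+ HSC, 3.18 ± 3.73 CPM in Lepr- HSC, 8.18 ± 5.71 CPM in Lepr+ MPP and 11.5 ± 7.24 CPM for Lepr- MPP (SD, n = 5 each), and was at 0 in replicate 4 of all groups. Il20ra and Il22ra2, which encode an IL-20 receptor chain and a soluble decoy for IL-22, are neighbours on chromosome 10. Il20ra was highest at 10.6 CPM in Lepr+ HSC replicate 2, and Il22ra2 at 11.2 CPM in Lepr+ MPP replicate 4. Il20rb, the other IL-20 receptor chain, was at or below 4.63 CPM. No member of this family but Il10rb passed in any comparison.

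The IL-1 receptor family includes 6 genes that follow each other on chromosome 1 with no protein-coding gene between them: Il1r2, Il1r1, Il1rl2, Il1rl1, Il18r1 and Il18rap. Il1r1 (ENSMUSG00000026072.12, chr1:40225080-40317257, plus strand) encodes the signalling receptor for IL-1. It had 8.63, 12.2, 13.2, 6.3 and 7.04 CPM in Lepr+ HSC, against 7.67, 13.7, 19.2, 23.6 and 3.96 CPM for Lepr- HSC. It had 29.5, 39.3, 39.3, 21.4 and 20.9 CPM in Lepr+ MPP, against 52, 45.8, 50.8, 40.9 and 25.5 CPM for Lepr- MPP. All HSC libraries lay below all MPP libraries of the same Lepr status. Il1r1 was lower in Lepr- HSC than in Lepr- MPP, with a log2 fold change of -1.66 ± 0.40 (edgeR adjusted p = 0.0239, 5 of 5 pairs). In Lepr+ HSC against Lepr+ MPP, other libraries that share their replicate numbers, and so their mice as read here, with the Lepr- ones, it was -1.67 ± 0.40, with an adjusted p of 0.0746, or 0.0146 with the block. The call in Lepr- cells was lost without any one of Lepr- HSC replicates 1 and 2 or Lepr- MPP replicates 1, 2 and 3, with adjusted p from 0.0603 to 0.0669.

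The neighbours of Il1r1, grouped after their values were seen, were also lower in both HSC groups on average. In Lepr- HSC against Lepr- MPP the log2 fold changes were -3.56 ± 1.57 for Il1r2, a decoy for IL-1, -1.39 ± 0.96 for Il1rl2, the IL-36 receptor, and -0.89 ± 1.53 for Il1rl1, the IL-33 receptor. They were -3.57 ± 1.47 for Il18r1 and -1.84 ± 0.92 for Il18rap, the chains of the IL-18 receptor. Of these 5, none passed (adjusted p from 0.292 to 0.922), and Il1r2 and Il18r1 did not overlap between the groups, where 6.23% of all genes did not. In Lepr+ HSC against Lepr+ MPP the same 5 genes had log2 fold changes between -3.29 and -0.35. Il1rap, the chain shared by IL-1, IL-33 and IL-36 receptors on chromosome 16, averaged 26.9 ± 7.96 CPM in Lepr+ HSC, 23.3 ± 6.08 CPM in Lepr- HSC, 23.6 ± 8.82 CPM in Lepr+ MPP and 22.1 ± 9.6 CPM for Lepr- MPP, with log2 fold changes between 0.08 and 0.21 in the 4 comparisons. Il1rl1 had 3 counts in Lepr+ HSC, against 171 in Lepr- HSC, 59.6-fold lower by counting alone (95% interval 20 to 292), and Lepr- HSC replicate 3 alone had 5.34 CPM. Il1rapl2, a brain-expressed relative, averaged 4.72 ± 4.53 CPM in Lepr+ HSC, against 0.471 ± 0.647 CPM for Lepr- HSC (adjusted p = 0.695).

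In the IL-17 receptor family, Il17re passed between Lepr- HSC and Lepr- MPP, and Il17ra, the shared chain, passed with the replicate block. Il17ra (ENSMUSG00000002897.5, chr6:120463247-120487559, plus strand) had 125, 179, 198, 197 and 109 CPM in Lepr+ HSC, against 148, 208, 209, 163 and 106 CPM for Lepr- HSC. It had 283, 374, 331, 169.5 and 142 CPM in Lepr+ MPP, against 312, 412, 351, 193 and 334 CPM for Lepr- MPP. All groups overlapped, through replicates 4 and 5 of the Lepr+ MPP and replicate 4 of the Lepr- MPP, the lowest of their groups. In Lepr- HSC against Lepr- MPP the log2 fold change was -0.94 ± 0.28 (edgeR adjusted p = 0.0849), lower in 5 of 5 pairs, and with the block Il17ra fell (adjusted p = 0.00735). It also passed without Lepr- MPP replicate 4 (adjusted p = 0.0416), but not without any 1 of the other 9 libraries of these groups (0.0938 to 0.242).

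Il17re (ENSMUSG00000043088.16, chr6:113458484-113470758, plus strand) encodes the chain that pairs with Il17ra for IL-17C. It had 37.3, 21.9, 23.1, 24.5 and 20.2 CPM in Lepr+ HSC, against 24.6, 16.7, 19.7, 20.1 and 2.39 CPM for Lepr- HSC. It had 45.3, 34.8, 38.3, 48.2 and 23.9 CPM in Lepr+ MPP, against 68.2, 50.4, 55.8, 41.1 and 35.8 CPM for Lepr- MPP. All Lepr- HSC lay below all Lepr- MPP, and replicate 5 of the Lepr- HSC was far below its group. Il17re was lower in Lepr- HSC than in Lepr- MPP, with a log2 fold change of -1.59 ± 0.40 (edgeR adjusted p = 0.0337, 5 of 5 pairs), but not without any one of Lepr- HSC replicates 2, 3 and 4 or Lepr- MPP replicates 1, 2 and 3, with adjusted p from 0.0604 to 0.104.

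Il17rc, which pairs with Il17ra for IL-17A and IL-17F, begins 668 bases beyond Il17re on the same strand and had the opposite pattern; it is described because its values were seen to differ. It had 5.42, 11.9, 8.21, 0 and 15.6 CPM in Lepr+ HSC, against 10.3, 21.4, 5.3, 10.5 and 14.6 CPM for Lepr- HSC. It had 2.06, 5.85, 4.07, 0.439 and 0 CPM in Lepr+ MPP, against 2.61, 1.55, 0.881, 0 and 1.88 CPM for Lepr- MPP. Every Lepr- HSC library lay above every Lepr- MPP library, at a log2 fold change of 3.16 ± 1.19, with an edgeR adjusted p of 0.229, or 0.0820 with the block, and DESeq2, which called 5.12% of all genes in this comparison, gave 0.0445. Of the 31 members tested only 5 had a positive log2 fold change in this comparison, Il17rc, Il15ra, Il11ra1, Il27ra and Il1rap. Il17rb, the chain for IL-25, stayed at or below 3.37 CPM, and Il17rd, which dampens growth factor signals as well, had 27 counts in Lepr+ MPP, 21 of them in replicate 2, against 0 in Lepr- MPP, at least 9.44-fold higher.

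Genes that work with these receptors were counted from lists by role. Of the 9 partner chains named otherwise, 8 were tested and 0 passed edgeR's test in any of the 5 comparisons, without or with the block. Il6st, which encodes gp130, averaged 52.6 ± 26.5 CPM in Lepr+ HSC, against 23.1 ± 8.69 CPM for Lepr- HSC, and 77.1 ± 39.6 CPM for Lepr+ MPP, against 36.4 ± 13.4 CPM for Lepr- MPP (SD, n = 5 each). Its log2 fold changes between Lepr+ and Lepr- cells were 1.19 ± 0.43 in HSC (edgeR adjusted p = 0.467) and 1.08 ± 0.43 in MPP (adjusted p = 0.748).

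Of the 11 kinases and STATs, all tested, 1 was lower in Lepr- HSC than in Lepr- MPP, where 1.51% of all genes were: Jak3, the kinase bound by the common gamma chain. Jak3 averaged 219 ± 38 CPM in Lepr+ HSC, 181 ± 37.6 CPM in Lepr- HSC, 259 ± 99.4 CPM in Lepr+ MPP and 361 ± 72.6 CPM for Lepr- MPP. Its log2 fold change in Lepr- HSC against Lepr- MPP was -0.999 ± 0.262 (edgeR adjusted p = 0.0436). With the block Stat3 (-0.83, adjusted p = 0.00785) and Stat5b (-0.38, adjusted p = 0.0215) fell as well, which made 3 of 11, where 3.43% of all genes fell in that fit. None of the 11 passed in any other comparison, without or with the block.

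Of the 11 adaptors of IL-1 and IL-17 receptors, 1 passed, Traf3ip2, which encodes the adaptor Act1 of the IL-17 receptors. Traf3ip2 averaged 8.38 ± 1.45 CPM in Lepr+ HSC, against 2.08 ± 1.96 CPM for Lepr- HSC, and 15.6 ± 1.73 CPM for Lepr+ MPP, against 11.6 ± 4.0 CPM for Lepr- MPP. It was lower in Lepr- HSC than in Lepr- MPP, with a log2 fold change of -2.46 ± 0.53 (edgeR adjusted p = 0.0116), where 1.51% of all genes were lower. With the block it was higher in Lepr+ than in Lepr- HSC by 2.27 ± 0.52 (adjusted p = 0.0498, or 0.169 without the block), where 0.763% of all genes were higher with the block.

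Of the 36 ligands and soluble antagonists, 14 had enough counts to be tested. Of these, 2 were lower in Lepr- HSC than in Lepr- MPP, where 1.51% of all genes were. Il15 fell by 1.51 ± 0.31 on the log2 scale (edgeR adjusted p = 0.00863) and Il16, a chemoattractant that binds CD4, fell by 1.11 ± 0.19 (adjusted p = 0.00187). Il15 averaged 37.7 ± 9.27 CPM in Lepr+ HSC, against 23.2 ± 11.4 CPM for Lepr- HSC, and 69.6 ± 16.6 CPM for Lepr+ MPP, against 65.9 ± 16 CPM for Lepr- MPP. Its level per kilobase thus exceeded that of its receptor chain Il15ra in every group, at 16.7, 10.3, 30.8 and 29.1 CPM per kilobase in Lepr+ and Lepr- HSC and in Lepr+ and Lepr- MPP, in that order, where Il15ra had 7.27, 8.27, 7.99 and 5.34. With the block Il16 was also higher in Lepr+ than in Lepr- HSC, by 0.61 on the log2 scale (adjusted p = 0.0481, or 0.299 without the block). In that fit 0.763% of all genes were higher.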

How the data were processed

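Bulk RNA-seq of 20 libraries was read as whole-number counts per gene, as deposited by the authors. Per the labels' protocols, RNA was amplified with SMART-Seq v4, made into unstranded libraries with Nextera XT and sequenced in pairs. The submitters' processing notes list GRCm38 as the build and, as tools, STAR 2.7.1a and HTSeq 0.11.2, beside cutadapt 2.1, FastQC 0.11.8 and DESeq2. The counting mode is not given in the sources used here. The 5 closing lines that name no gene held 21.43 to 38.66% of a library and were left out. Since PCR copies are counted, intervals cover counting error only.

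Genes were kept by filterByExpr (minimum count 10, minimum total 15), scaled by TMM and tested in edgeR 4.0.16 (R 4.3.3) by a two-sided quasi-likelihood F test with group as the only term over all 20 libraries. P-values were adjusted by Benjamini-Hochberg over 16509 genes. Each sample pooled 2 mice, so p-values measure the spread between such pools. Every replicate drew on 2 mice in the series' design text, and each number carries 1 date across the 4 groups, so the number was read as pairing the libraries. Over 30 same-numbered pairs, deviations from group means correlated with a median r of 0.264 (-0.065 to 0.562), against -0.0855 over 120 other pairs. The fit with the replicate number as a block is therefore printed where it changes a call. Other alternatives were DESeq2 1.42.0, limma voom 3.58.1, DESeq2 size factors, no filter, only the groups compared, fewer libraries, and the June or July libraries by the dates in their names. The calculation was tested on simulated data.

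Values in every library are given for each member that passed in any comparison, without or with the block, and for the 3 with the smallest p in each Lepr+ against Lepr- comparison. The members and gene lists were chosen with earlier results of these data known. Figures were drawn with matplotlib 3.10.9 (Python 3.11.15).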

Additional observations from a re-analysis of the deposited data

Results flagged for a closer look

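Among 39 sets of 5 libraries examined, 1 for each described gene and group, 5 had a library whose gap to its nearest neighbour exceeded 0.71 of the range of its group, Dixon's limit for 5 samples. Chance alone gives about 1 in 20 only where values are normally distributed. In a group mostly at 0 counts, 1 library with counts gives a gap near 1, so that rate does not apply. Il17re in Lepr+ HSC had 37.3 CPM in replicate 1, against 24.5 CPM in the next library, a gap of 0.748 of the range. The other 4 concerned genes with few counts. Il31ra stood out in replicate 3 of Lepr+ HSC (1.13 CPM, next 0.0396, gap 0.965), of Lepr- HSC (10.3 CPM, next 0.405, gap 0.961) and of Lepr+ MPP (0.0311 CPM, all others 0, gap 1). Il7r stood out in replicate 1 of Lepr+ HSC (0.514 CPM, next 0.0290, gap 0.944).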

How the results depend on the processing

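The number of members called was 0 in Lepr+ against Lepr- HSC, 0 in Lepr+ against Lepr- MPP, 0 in Lepr+ HSC against Lepr+ MPP, 5 in Lepr- HSC against Lepr- MPP and 0 for the interaction. Over all genes tested, 0.103%, 0.2%, 0.466%, 2.73% and 0% were called in that order. With the replicate block the members called were 1 (Il2rg), 0, 1 (Il1r1), 7 and 0, where 1.02%, 0.103%, 1.77%, 7.5% and 0% of all genes were called, and with the block and without the 3 libraries least like their group, a setting chosen after seeing the data, they were 3 (Il21r, Il2rg and Il4ra), 0, 1, 10 and 0, where 0.797%, 0.0112%, 1%, 11% and 0% of all genes were. DESeq2 called 2, 1, 3, 8 and 0 members, and 1.1%, 1.29%, 2.08%, 5.12% and 0.115% of all genes. limma voom called 1 in Lepr+ HSC against Lepr+ MPP (0.763% of all genes) and 7 in Lepr- HSC against Lepr- MPP (3.96%). In Lepr- HSC against Lepr- MPP there were 3 with no filter (1.16% of all genes), 2 when only those groups were fitted (3.68%), 1 (Il4ra) in the June libraries (0.457%), 0 in the July libraries (0%) and 6 without the 3 libraries (4.28%). Leaving out 1 library or replicate number at a time gave 0 to 1 in Lepr+ against Lepr- HSC, 1 to 6 in Lepr- HSC against Lepr- MPP and 0 to 0 in the other 3, and with the replicate block, where only whole replicate numbers were left out, 0 to 1, 0 to 0, 0 to 2, 5 to 7 and 0 to 0 in the order above. Of the 34 fold changes of members that were followed across the alternatives, 34 kept their sign. They had been picked by their p-values in these same libraries, which the alternatives largely reuse, so this is no independent check. Some of them could not be computed under every alternative. The fold changes of Il1rl2, Il1rl1 and Il18rap in Lepr- cells, of Il1r1's 5 neighbours in Lepr+ cells, and of Il1rap and the partner, signalling and ligand genes were not recomputed. The cause of the changes in these counts was not tested beyond the fewer libraries or genes that a setting holds. Il2rg and Il4ra were each called in Lepr- HSC against Lepr- MPP under 28 of 30 alternatives; Il2rg missed in June (adjusted p = 0.0541) and July (0.54), Il4ra without replicate 3 (0.0637) and in July (0.892). Members with few counts, which the libraries of replicates 4 and 5 often miss, are the least certain.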
